A study of Mus musculus with 6 samples.

Results

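The HOX genes were the 39 entries of the deposited mouse gene table whose symbol is Hox, a cluster letter from a to d and a number, out of 23358 entries in all. The table gave 11 members in the HoxA cluster, 10 in HoxB, 9 in HoxC and 9 in HoxD. Gene expression was measured by bulk RNA-Seq in 6 spontaneous tumors, 1 per mouse and all from females, of animals carrying NT3 on C57Bl/6J, a form of the kinase NIK without its TRAF3-binding domain that is silent in the ROSA26 locus until Cre removes a stop cassette. In Osx-Cre;NT3 mice, of mixed C57Bl/6J and CD1 background, Cre was driven by Osterix regulatory sequence, which is active in the bone lineage and can be held off by doxycycline, given in chow until weaning. In FSP1-Cre;NT3 mice, with an FVB/n Cre line, Cre was driven by S100a4 sequence, active across much of the mesenchyme. The Osx-Cre;NT3 line gave tumors 13, 18 and 25, all on the trunk, after latencies of 150, 168 and 115 days. The FSP1-Cre;NT3 line gave trunk tumor 29 after 72 days and perineal tumors 27 and 36 after 101 and 52 days. No tissue without the transgene, and no normal trunk or perineal tissue, was among these samples, so mouse line, strain background, latency and tumor site cannot be told apart for most of what follows.

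HOX genes encode homeodomain transcription factors that stand in order along each of their chromosomal clusters. In the embryo, genes at the one end are used in the head and neck, and genes at the other end in the tail, hindgut, genital region and distal limbs, so the set of active HOX genes marks a position along the body. Adult fibroblasts and some epithelia keep much of the set of the place they come from, and the terminal group 13 genes are known from the hindgut, the genitourinary tract and the distal limb. Members that share a number in different clusters are paralogs and are called a paralog group here.

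The promoters of 5 genes are shown because these genes bound the pattern that separated the tumors. Hoxa10 and Hoxd10 were above a floor of 3 counts in every tumor. Hoxa11, Hoxa13 and Hoxd13, nearer the terminal end of the same clusters, were not. Each is the 250 bases before the RefSeq start in GRCm38.p6, 5′ to 3′ on the strand of the gene, with CG dinucleotides in capitals. The windows lie at chr6:52240855-52241104 (Hoxa10, minus strand), chr6:52245811-52246060 (Hoxa11, minus), chr6:52260881-52261130 (Hoxa13, minus), chr2:74691641-74691890 (Hoxd10, plus) and chr2:74667975-74668224 (Hoxd13, plus).
Hoxa10 promoter: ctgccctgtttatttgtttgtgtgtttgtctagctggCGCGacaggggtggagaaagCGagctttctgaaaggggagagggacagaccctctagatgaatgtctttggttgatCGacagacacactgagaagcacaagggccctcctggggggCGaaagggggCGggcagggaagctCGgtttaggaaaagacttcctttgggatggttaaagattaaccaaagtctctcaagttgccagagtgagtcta
Hoxa11 promoter: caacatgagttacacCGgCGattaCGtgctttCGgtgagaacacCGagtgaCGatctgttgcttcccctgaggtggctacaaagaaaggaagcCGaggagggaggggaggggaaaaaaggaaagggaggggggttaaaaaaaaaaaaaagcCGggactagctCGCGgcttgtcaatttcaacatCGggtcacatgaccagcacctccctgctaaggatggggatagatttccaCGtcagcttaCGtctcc
Hoxa13 promoter: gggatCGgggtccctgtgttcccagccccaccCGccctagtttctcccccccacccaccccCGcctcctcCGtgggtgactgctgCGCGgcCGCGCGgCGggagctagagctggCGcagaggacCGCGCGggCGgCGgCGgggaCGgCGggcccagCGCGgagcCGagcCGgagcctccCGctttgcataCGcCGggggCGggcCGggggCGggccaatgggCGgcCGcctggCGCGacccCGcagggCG
Hoxd10 promoter: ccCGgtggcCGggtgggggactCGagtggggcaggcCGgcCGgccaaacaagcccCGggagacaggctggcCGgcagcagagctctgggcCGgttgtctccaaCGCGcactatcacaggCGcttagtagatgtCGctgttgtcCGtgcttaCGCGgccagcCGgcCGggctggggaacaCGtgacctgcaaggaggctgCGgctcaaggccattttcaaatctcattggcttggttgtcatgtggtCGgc
Hoxd13 promoter: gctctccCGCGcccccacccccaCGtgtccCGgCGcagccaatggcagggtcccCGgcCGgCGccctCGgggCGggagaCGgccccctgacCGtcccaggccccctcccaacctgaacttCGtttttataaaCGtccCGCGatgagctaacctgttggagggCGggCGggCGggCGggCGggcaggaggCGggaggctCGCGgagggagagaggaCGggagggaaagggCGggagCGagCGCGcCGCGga
These windows held 7, 13, 35, 20 and 31 CG dinucleotides in that order, and the 22 HOX promoters in the RefSeq table held a median of 12.5, against 6 over all 32851 promoters. Both group 13 promoters were thus the richest in CG of the 5. Both strands were searched for CAATAAA, a core that group 13 and caudal-type homeodomains bind, for TCGTAAA, another group 13 core, and for the TATA box letters TATAAA. The motifs do not contain each other. Among the 22 HOX promoters, CAATAAA and TCGTAAA were each found in 1, in both cases Hoxb8, and TATAAA in 3, Hoxb8, Hoxd4 and Hoxd13. Over all promoters of this length the 3 motifs were found in 4.2%, 0.478% and 12.4%.

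HOX transcripts were a small part of each library. They took 0.0135%, 0.0138% and 0.0159% of all counts in Osx-Cre;NT3 tumors 13, 18 and 25, 0.0214% in tumor 29, 0.0186% in tumor 27 and 0.0400% in tumor 36. Libraries held 51824408 to 163297772 counts, and a floor of 3 counts corresponded to 0.0195 to 0.0621 CPM, counts relative to library size after scaling for composition. Of the 39 genes, 29 were above that floor in every tumor, 36 were above it in at least 1 tumor, and Hoxd1 was at 0 counts in all 6. The split followed the paralog number: 28 of the 30 members of groups 1 to 10 were above the floor in every tumor, the exceptions being Hoxb1 and Hoxd1. Of the 9 members of groups 11 to 13, Hoxb13 alone was above the floor in every tumor, and Hoxc12 was above it in none, with 0.0282 CPM in tumor 25 and 0 counts in the other 5.

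**Figure D1:**
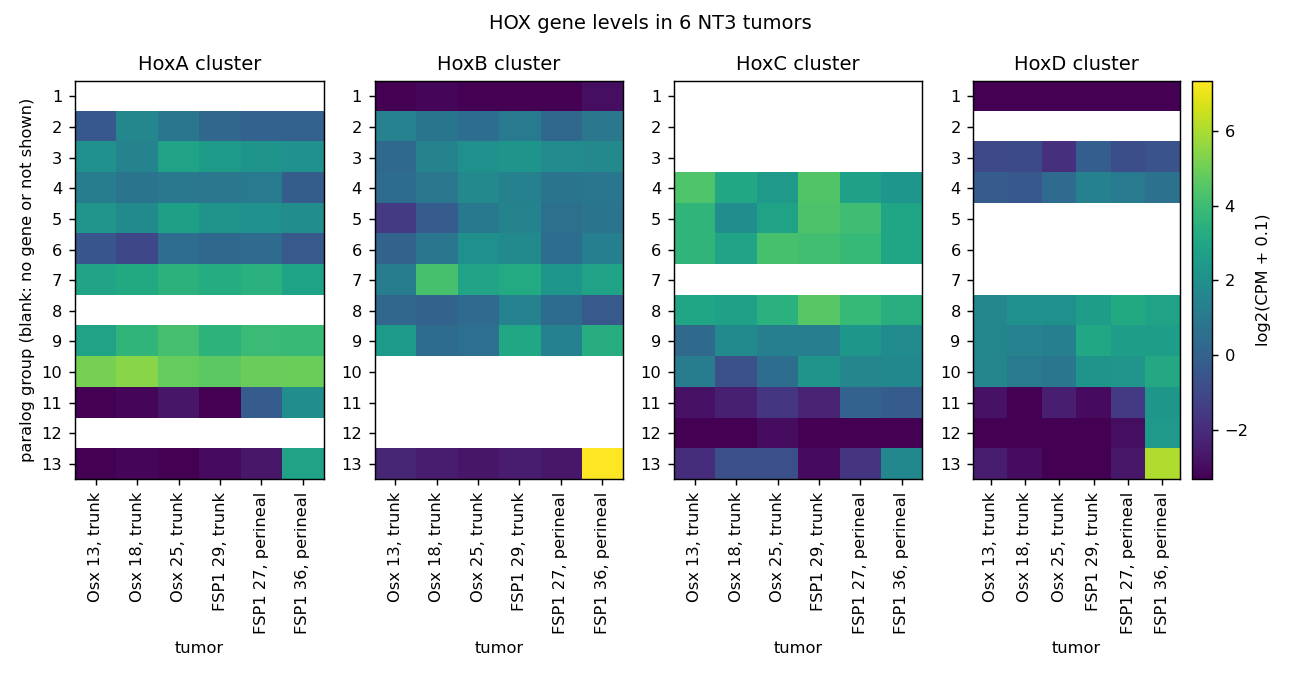
Level of each HOX gene in each tumor as log2(CPM + 0.1), 1 panel per cluster, with paralog groups from 1 to 13 down the vertical axis and tumors by mouse line and site on the horizontal axis; blank cells are groups the cluster lacks or members not shown. Groups 3 to 10 were filled in all 6 tumors, and groups 11 to 13 were bright in tumor 36 only, where Hoxb13 stood at 160.6 CPM.

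In groups 1 to 10 gene levels were correlated between tumors, while single genes differed, such as Hoxb7 at 2.15 to 18.8 CPM. Summed CPM over these 30 genes was 144.4, 145.7 and 156.4 in Osx-Cre;NT3 tumors 13, 18 and 25, 206.3 in tumor 29, 167.7 in tumor 27 and 151.6 in tumor 36. Across these genes, Pearson's r of log2 CPM between any pair of tumors ran from 0.845 to 0.95, and the pairs with tumor 36 from 0.863 to 0.94. The genes include Hoxb1 and Hoxd1, at or near 0 counts in every tumor, which can raise r. These correlations are across genes of the same tumors and are given as a description.

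In the HoxA cluster the level was highest at group 10. Hoxa10 (chr6:52231197-52240854 in mm10, minus strand), which patterns the lumbar region and the uterus, stood at 35.6, 43.7 and 27.9 CPM in tumors 13, 18 and 25, 24.8 in tumor 29, 29.8 in tumor 27 and 30.5 in tumor 36. The groups overlapped for both site and line. Hoxa9, its neighbour, known for roles in blood stem cells and posterior patterning, was at 6.87, 12.5 and 18.3 CPM in the Osx-Cre;NT3 tumors, 11.6 in tumor 29, 15.3 in tumor 27 and 14.5 in tumor 36. Hoxa7 was the most even of the 3, at 7.41, 8.65 and 11.3 CPM in the Osx-Cre;NT3 tumors, 9.70 in tumor 29, 10.99 in tumor 27 and 7.10 in tumor 36. Hoxa2 to Hoxa6 lay between 0.390 and 6.87 CPM in every tumor. The deposited Hoxa3 entry spans those of Hoxa4, Hoxa5 and Hoxa6, so reads of these 4 entries may have been split among them or lost.

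Per transcript length, in the deposited RPKM, which relates reads to both library size and gene length, Hoxa10 was the highest HOX gene in tumors 13 and 27, at 8.50 and 8.37. Other genes led elsewhere: Hoxb7 in tumor 18 at 11.2 RPKM, Hoxc6 in tumor 25 at 9.57, Hoxc4 in tumor 29 at 8.59 and Hoxb13 in tumor 36 at 98.7. The lead thus passed among clusters and, outside tumor 36, among groups 4 to 10.

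HoxB members below group 10 varied more between tumors than by site. Hoxb7 was at 2.15, 18.8 and 7.29 CPM in the Osx-Cre;NT3 tumors, 8.98 in tumor 29, 4.73 in tumor 27 and 6.91 in tumor 36. Hoxb9 was at 5.47, 1.26 and 1.38 CPM in the Osx-Cre;NT3 tumors, 7.95 in tumor 29, 2.46 in tumor 27 and 9.88 in tumor 36. Neither gene separated the sites or the lines. The remaining members Hoxb2 to Hoxb8 lay between 0.248 and 4.46 CPM, and Hoxb1, a hindbrain gene, had at most 2 counts in any tumor.

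Per transcript length, Hoxc4, Hoxc5, Hoxc6 and Hoxc8 had means of 4.44, 3.33, 6.501 and 4.18 RPKM over the 6 tumors, and Hoxa4 to Hoxa7 had 0.892, 1.90, 1.03 and 3.80. Hoxc6 was at 12.3, 7.29 and 18.7 CPM in the Osx-Cre;NT3 tumors, 17.1 in tumor 29, 14 in tumor 27 and 7.57 in tumor 36. Hoxc5 was at 12.5, 3.64 and 6.90 CPM in the Osx-Cre;NT3 tumors, 20.1 in tumor 29, 16.4 in tumor 27 and 7.82 in tumor 36. Hoxc4, the most anterior member of its cluster, was at 20.8, 8.22 and 5.15 CPM in the Osx-Cre;NT3 tumors, 21.3 in tumor 29, 6.69 in tumor 27 and 4.75 in tumor 36. Tumors 13 and 29, of different lines, were the 2 that were high for Hoxc4. Perineal tumors were lower on average for this gene by the fit, with a log2 fold change of -1.28 ± 0.64 (SE) and an edgeR quasi-likelihood adjusted p of 0.534, and the groups overlapped. Hoxc8, a thoracic gene, was at 7.62, 6.68 and 10.95 CPM in the Osx-Cre;NT3 tumors, 23.8 in tumor 29, 13.8 in tumor 27 and 10.5 in tumor 36.

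The terminal groups 11 to 13 gave the widest contrast, and it was carried by 1 of the 2 perineal tumors. Summed CPM of the 9 members was 0.456, 0.728 and 0.958 in Osx-Cre;NT3 tumors 13, 18 and 25 and 0.257 in trunk tumor 29. It was 2.36 in perineal tumor 27 and 252 in perineal tumor 36. In tumor 36 the group 13 genes alone summed to 237.5 CPM, more than all HOX genes of groups 1 to 10 together in the same tumor.

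Hoxb13 (chr11:96194361-96196599, plus strand), known from the tail bud, the distal colon and the prostate, led. It was at 0.124, 0.0780 and 0.0563 CPM in the Osx-Cre;NT3 tumors, 0.0770 in tumor 29, 0.0614 in tumor 27 and 160.6 in tumor 36, where it had 10274 counts. Hoxd13 (chr2:74668310-74671598, plus strand), a gene of digits and the genital tubercle, was at 0.0828, 0.0260 and 0 CPM in the Osx-Cre;NT3 tumors, 0 in tumor 29, 0.0614 in tumor 27 and 67.0 in tumor 36. Hoxa13 (chr6:52258853-52260880, minus strand), needed for hindgut and genitourinary development, was at 0, 0.0130 and 0 CPM in the Osx-Cre;NT3 tumors, 0.0257 in tumor 29, 0.0614 in tumor 27 and 6.88 in tumor 36, with 440 counts there. For these 3 genes the other perineal tumor, 27, was at the level of the trunk tumors, near the floor. Hoxc13, a gene of hair and nail keratinocytes, was above the floor in 5 of 6 tumors. It was at 0.166, 0.507 and 0.507 CPM in the Osx-Cre;NT3 tumors, 0.0257 in tumor 29, 0.215 in tumor 27 and 3.03 in tumor 36. The 9 hair follicle and nail genes listed here summed to 12.05 to 131.7 CPM in the trunk tumors, 33.09 in tumor 27 and 365.4 in tumor 36, and their part in the Hoxc13 values was not tested.

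Group 11 was the terminal group in which both perineal tumors stood above the trunk tumors. Hoxa11 (chr6:52242106-52245767, minus strand), a gene of the forearm, the kidney and the uterus, was at 0, 0.0130 and 0.0563 CPM in the Osx-Cre;NT3 tumors, 0 in tumor 29, 0.768 in tumor 27 and 3.72 in tumor 36. Hoxd11 (chr2:74682393-74684138, plus strand), its paralog, was at 0.0414, 0 and 0.0845 CPM in the Osx-Cre;NT3 tumors, 0.0257 in tumor 29, 0.246 in tumor 27 and 4.85 in tumor 36. Hoxc11 was at 0.0414, 0.0909 and 0.225 CPM in the Osx-Cre;NT3 tumors, 0.103 in tumor 29, 0.921 in tumor 27 and 0.750 in tumor 36. The trunk and perineal values did not overlap for any of the 3, where 10.3% of all genes tested were likewise apart and higher in perineal tumors. Hoxa11 and Hoxd11 had usable counts through the perineal tumors alone and therefore had to differ. Hoxc11 was the one of the 3 that was no lower in tumor 27 than in tumor 36. Hoxd12 had 0.0307 CPM in tumor 27, 5.16 in tumor 36 and 0 counts in the 4 trunk tumors.

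**Figure D2:**
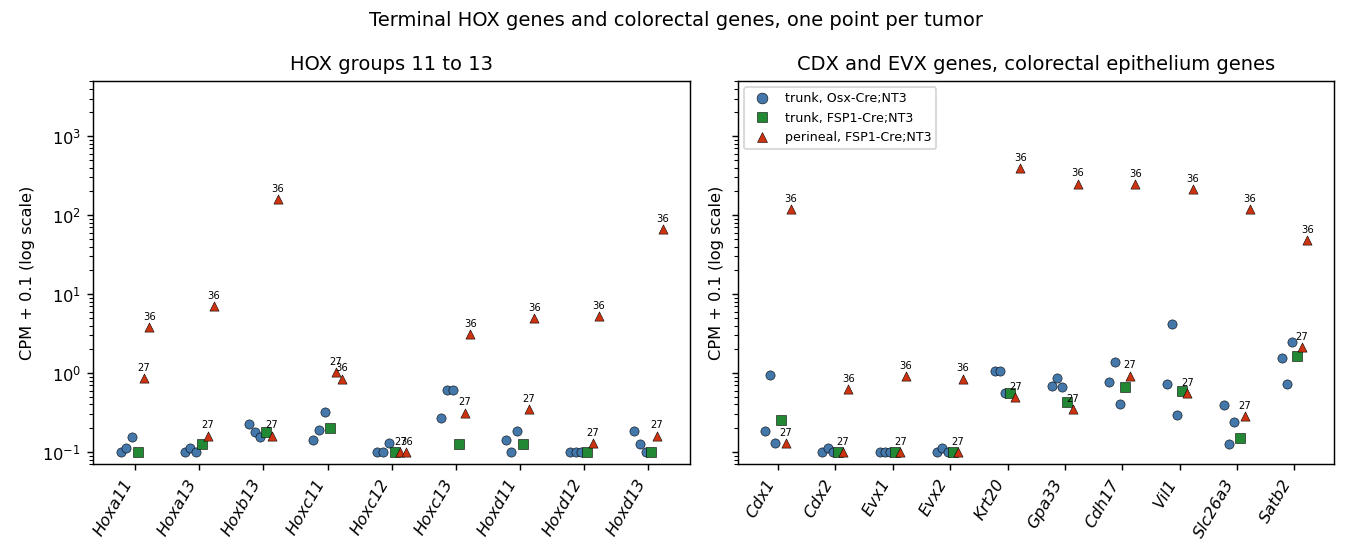
CPM + 0.1 on a log scale, 1 point per tumor, for the 9 HOX genes of groups 11 to 13 (left) and for CDX, EVX and colorectal epithelium genes (right), with blue circles for Osx-Cre;NT3 trunk tumors, the green square for the FSP1-Cre;NT3 trunk tumor and red triangles, numbered, for the perineal tumors. Tumor 36 stood apart in both panels, and tumor 27 was above every trunk tumor for Hoxa11, Hoxc11 and Hoxd11.

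Evx1, Evx2, Hoxa11as and Hotair, next to the terminal HOX genes, were each higher in tumor 36 than in every trunk tumor, but differed in tumor 27. Evx1 and Evx2, homeobox genes beyond the group 13 end of HoxA and HoxD, were at 0.813 and 0.750 CPM in tumor 36 and at 0 to 0.0130 CPM in the other 5. Hoxa11as, an antisense transcript over Hoxa11, was at 0 to 0.0513 CPM in the trunk tumors, 0.491 in tumor 27 and 13.9 in tumor 36; whether counting used strand is not given in the sources used here, so its reads and those of Hoxa11 cannot be told apart. Hotair, a long noncoding RNA between Hoxc11 and Hoxc12 that was singled out after its values were seen, was at 0 to 0.0282 CPM in the trunk tumors, 0.307 in tumor 27 and 0.250 in tumor 36.

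Cdx1, a caudal-type homeobox gene that acts upstream of HOX genes in the embryo and marks adult intestine, was at 0.0828, 0.857 and 0.0282 CPM in the Osx-Cre;NT3 tumors, 0.154 in tumor 29, 0.0307 in tumor 27 and 119.2 in tumor 36. Genes of colorectal epithelium, a list of 15 made after these values were seen, moved with it: 14 were in the table, and 13 of the 14 were highest in tumor 36. Krt20, Gpa33, Cdh17 and Vil1 were at 398.7, 250.1, 244.9 and 212.7 CPM in tumor 36 and at 0.197 to 4.05 CPM in the other 5 tumors. The exception was Fcgbp, at 863.1 to 3268 CPM in the trunk tumors, 2123 in tumor 27 and 1298 in tumor 36. The whole list summed to 878 to 3274 CPM in the trunk tumors, 2133 in tumor 27 and 4175 in tumor 36, and the 13 genes other than Fcgbp to 5.83 to 14.9, 9.52 and 2877 CPM. Cdx2, which defines intestinal epithelium, was low even in tumor 36, at 34 counts or 0.532 CPM, and was at 0 counts in 4 of the other tumors. Among the 14, only Car4 was higher in tumor 27, at 3.07 CPM, than in every trunk tumor. Smooth muscle genes summed to 240.4 to 546.6 CPM in the trunk tumors, 350.8 in tumor 27 and 2319 in tumor 36, and simple epithelium genes to 620.6 to 1188, 785.2 and 4758. The part of these cells in the terminal HOX values of tumor 36 was not tested, and in bulk tissue more cells of a type and more RNA per cell cannot be told apart.

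The comparison of perineal with trunk tumors asked whether HOX levels followed tumor site. In edgeR's quasi-likelihood test, 0 of 32 HOX genes passed an adjusted p of 0.05, where 0% of the 16971 genes tested did, and the smallest adjusted p among the HOX genes was 0.263. The other 7, Hoxa13, Hoxb1, Hoxb13, Hoxc12, Hoxd1, Hoxd12 and Hoxd13, were left out by the filter on low counts, since no 2 libraries had enough reads. At an unadjusted p under 0.05, 5 of 32 HOX genes were higher in perineal tumors, against 8.88% of all genes, and 0 were lower, against 1.63%. The 5 were Hoxa11, Hoxc11, Hoxd8, Hoxd10 and Hoxd11. In 6 of 32 the groups did not overlap with perineal tumors higher, those 5 and Hoxc9, against 10.3% of all genes, and in 0 with perineal tumors lower, against 9.36%. Hoxa11 and Hoxd11 passed the filter on low counts through the perineal tumors alone and therefore had to differ. Without genes of that kind the counts were 3 of 30 HOX genes, against 8.48% of all genes, and 4 of 30, against 9.72%.

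The fitted log2 fold changes, perineal over trunk, were 6.87 ± 1.20 (SE) for Hoxa11, 6.12 ± 1.44 for Hoxd11, 2.83 ± 0.71 for Hoxc11, 2.40 ± 1.20 for Hoxc13 and 1.24 ± 0.50 for Hoxd10, with edgeR adjusted p-values of 0.263, 0.265, 0.276, 0.534 and 0.459. Hoxd8 and Hoxc9 had 0.91 ± 0.38 and 0.86 ± 0.48, with edgeR adjusted p-values of 0.473 and 0.554. Trunk tumors had 0 to 4 counts of Hoxa11, so the size of its fold depends on the prior count of the fit. Outside the terminal groups the members were spread around 0. The median log2 fold change over the 28 tested members of groups 1 to 10 was -0.03, and -0.02 over all genes. The median over all 32 HOX genes was 0.12.

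Which HOX genes were called depended on the tool and on single tumors. DESeq2 called 6 of 36 HOX genes higher in perineal tumors, namely Hoxa11, Hoxa13, Hoxb13, Hoxc11, Hoxd11 and Hoxd13, against 3.87% of all genes, and 0 lower, against 0.232%. All of these but Hoxc11 had 0 to 12 counts in each trunk tumor. They had usable counts through the perineal tumors alone, and Hoxa13, Hoxb13 and Hoxd13 through tumor 36 alone, with 4 counts each in tumor 27. These genes could only come out higher, so the 3.87% is no measure for them. The DESeq2 adjusted p-values of the 6 ran from 5.02e-06 for Hoxa11 to 0.0216 for Hoxc11. Without tumor 36, DESeq2 called 0 HOX genes and 15 genes in all, and the edgeR log2 fold change of Hoxd11 was 2.74. Without trunk tumor 18, DESeq2 called 3, Hoxa11, Hoxb13 and Hoxd11. Without tumor 13 it called 5 among 397 genes in all, with Hoxc11 lost. Without tumor 29 it called 8, with Hoxc11 lost and Hoxd8, Hoxd9 and Hoxd10 gained. With no tumor left out it called 725 genes in all, so the total moved as well. Without tumor 27, the perineal group was tumor 36 alone, and the edgeR fit assumes that it would vary like the trunk tumors. Hoxa11, Hoxa13, Hoxb13, Hoxd11, Hoxd12 and Hoxd13 had few or no trunk counts and could only come out higher there. The calls of that fit are therefore no measure for them. Within FSP1-Cre;NT3 tumors alone, where 1 trunk tumor stands against 2 perineal ones, edgeR called 0 genes, and the log2 fold changes were 3.00 for Hoxc11 and 0.54 for Hoxd10.

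**Figure D3:**
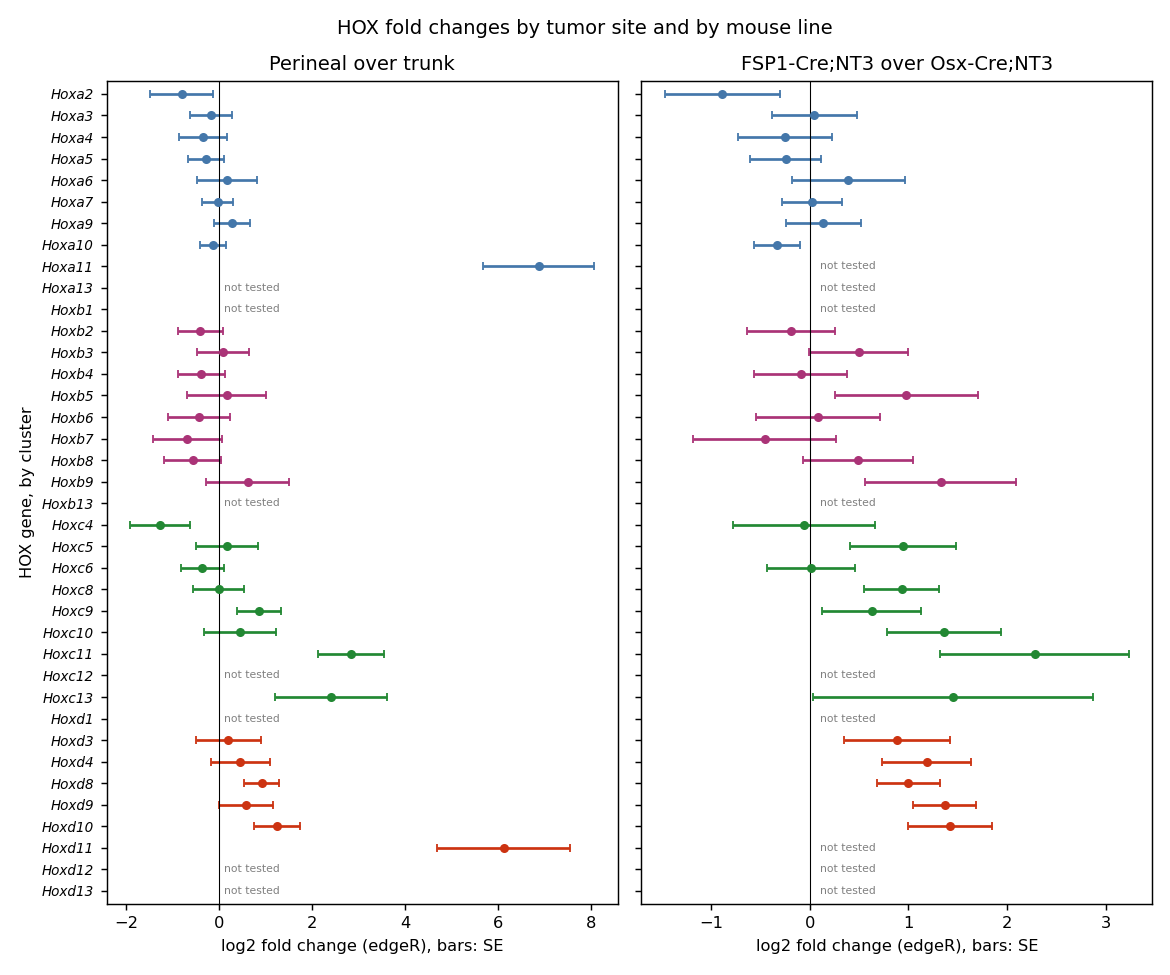
Log2 fold change of each HOX gene with its standard error from edgeR, perineal over trunk tumors (left, 32 tested) and FSP1-Cre;NT3 over Osx-Cre;NT3 (right, 30 tested), colored by cluster; genes left out by the low-count filter are marked as not tested, and 1 tested member is not drawn. Hoxa11 and Hoxd11 lay farthest to the right by site, at 6.87 and 6.12, and all 5 tested HoxD genes lay above 0 by line.

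The share of all HOX counts taken by groups 9 to 13 set tumor 36 apart and left tumor 27 within the range of the trunk tumors. Groups 9 to 13 held 39.7%, 45.5% and 35.7% in Osx-Cre;NT3 tumors 13, 18 and 25, 30.9% in tumor 29, 40.0% in tumor 27 and 81.2% in tumor 36. Groups 1 to 4 held 16.15% to 24.2% in the trunk tumors, 14.1% in tumor 27, below each of them, and 4.90% in tumor 36. Groups 11 to 13 held 0.124% to 0.608%, 1.39% and 62.4% in the same order. The perineal mean of 60.6% for groups 9 to 13, against 37.9% in trunk tumors, therefore rested on tumor 36, and it was 40.0% without it. By cluster, HoxB went from 10.2% to 20.3% in the other 5 tumors to 46.7% in tumor 36.

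**Figure D4:**
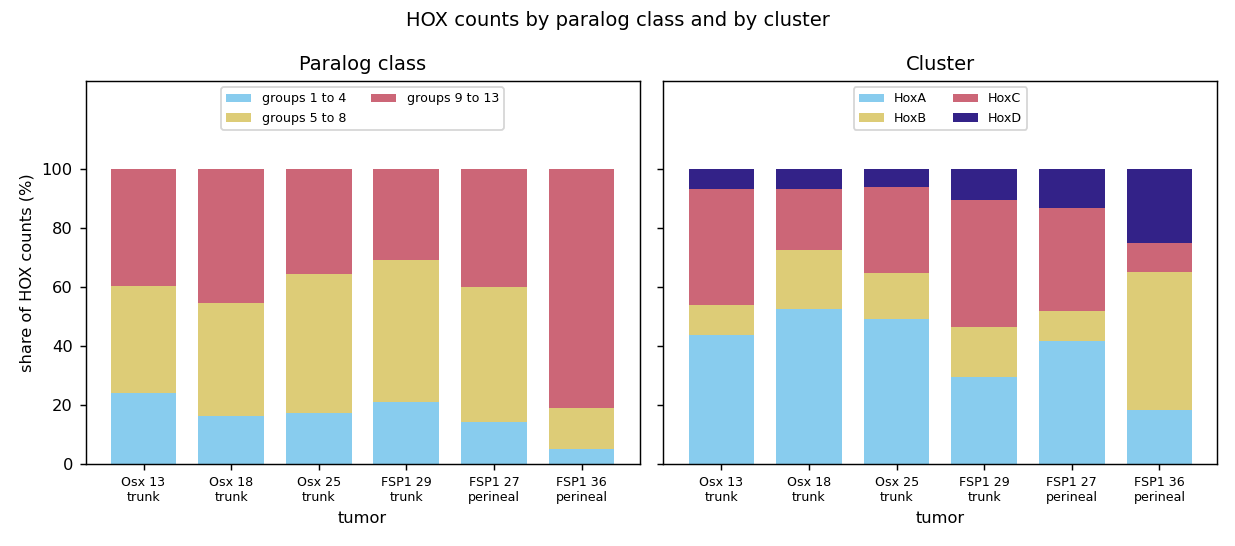
Stacked bars of the percent of all HOX counts in each tumor, by paralog class (left) and by cluster (right). Groups 9 to 13 took 81.2% in tumor 36 against 30.9% to 45.5% in the other tumors, and HoxD took over 10% in the FSP1-Cre;NT3 tumors and under 7% in the Osx-Cre;NT3 tumors.

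The comparison of mouse lines asked whether HOX levels differed by the driver of Cre. It used the same 6 tumors as the comparison by site. In edgeR's quasi-likelihood test, 0 of 30 HOX genes passed an adjusted p of 0.05, where 0% of the 16415 genes tested did, and HOX adjusted p-values ran from 0.432 to 0.992. At an unadjusted p under 0.05, 5 of 30 HOX genes were higher with FSP1-Cre;NT3, against 7.31% of all genes, and 0 were lower, against 3.47%. In 6 of 30 the groups did not overlap with FSP1-Cre;NT3 tumors higher, against 9.03% of all genes, and in 0 with them lower, against 7.97%. Those 6 were Hoxc10, Hoxd3, Hoxd4, Hoxd8, Hoxd9 and Hoxd10. The median log2 fold change was 0.44 over the 30 HOX genes and 0.01 over all genes tested.

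By cluster the widest difference between the lines was in HoxD, which lies on chr2 and is used in limbs, genitalia and the trunk. Summed CPM of HoxD groups 1 to 10 was 9.77, 9.72 and 9.38 in Osx-Cre;NT3 tumors 13, 18 and 25, and 21.8, 21.8 and 23.6 in FSP1-Cre;NT3 tumors 27, 29 and 36. Trunk tumor 29 thus stood with the perineal tumors of its line and not with the other trunk tumors. By cluster, the median log2 fold change of the tested genes, FSP1-Cre;NT3 over Osx-Cre;NT3, was -0.25 in HoxA, 0.29 in HoxB, 0.94 in HoxC and 1.18 in HoxD, with all 5 tested HoxD genes above 0. These medians are descriptions over neighbouring genes, not tests.

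Hoxd9 (chr2:74697763-74700208, plus strand) had the smallest p of the HOX genes. It was at 2.86, 2.57 and 2.34 CPM in the Osx-Cre;NT3 tumors and at 5.93, 8.11 and 6.0 CPM in tumors 27, 29 and 36, a log2 fold change of 1.37 ± 0.32 (SE) with an edgeR adjusted p of 0.432. Hoxd10, which patterns the hindlimb, was at 2.82, 2.00 and 1.69 CPM in the Osx-Cre;NT3 tumors and at 4.54, 4.44 and 8.44 CPM in tumors 27, 29 and 36, a log2 fold change of 1.42 ± 0.42 with an edgeR adjusted p of 0.458. Hoxd8 was at 2.94, 4.05 and 3.94 CPM in the Osx-Cre;NT3 tumors and at 8.87, 5.95 and 7.04 CPM in tumors 27, 29 and 36, a log2 fold change of 1.00 ± 0.32 with the same adjusted p. In each of the 3 the lowest FSP1-Cre;NT3 tumor was above the highest Osx-Cre;NT3 tumor. Hoxd4 and Hoxd3, whose entries overlap each other, had log2 fold changes of 1.18 ± 0.45 and 0.89 ± 0.54, with edgeR adjusted p-values of 0.458 and 0.509.

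With the trunk tumors alone, 3 against tumor 29, the log2 fold changes were 1.64 for Hoxd9, 1.49 for Hoxd4, 1.03 for Hoxd10 and 0.70 for Hoxd8, at an edgeR adjusted p of 1. DESeq2 called 4 of 32 HOX genes higher in FSP1-Cre;NT3 tumors, Hoxa11, Hoxd9, Hoxd10 and Hoxd11, against 2.36% of all genes, and 0 lower, against 0.376%. Hoxa11 and Hoxd11 had 0 to 6 counts in each Osx-Cre;NT3 tumor and were left out of edgeR by line. They had usable counts through the perineal tumors alone, so the 2.36% is no measure for them. The DESeq2 adjusted p was 0.000781 for Hoxd9 and 0.0387 for Hoxd10. Leaving out each tumor in turn, DESeq2 called Hoxd9 every time, while Hoxd10 was called without tumor 25 or tumor 29 and was lost without any of the other 4. Hoxa11 and Hoxd11 were lost in the same 4 cases, and in trunk tumor 29 of this line they were at 0 and 0.0257 CPM, within the range of the Osx-Cre;NT3 tumors. Fibroblast genes moved with the line as well: the 10 listed summed to 5422 to 7084 CPM in the Osx-Cre;NT3 tumors and 12230 to 15490 in the FSP1-Cre;NT3 tumors, and 6 of 10 were higher at an unadjusted edgeR p under 0.05, against 7.31% of all genes. Their part in the HoxD difference was not tested.

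**Figure D5:**
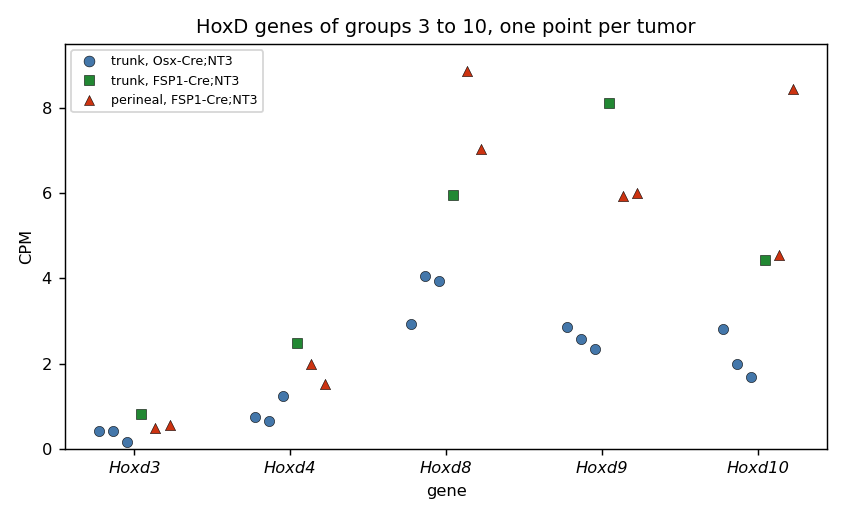
CPM of the HoxD genes of groups 3 to 10, 1 point per tumor, with blue circles for Osx-Cre;NT3 trunk tumors, green squares for the FSP1-Cre;NT3 trunk tumor and red triangles for the perineal tumors. For all 5 genes each FSP1-Cre;NT3 tumor lay above each Osx-Cre;NT3 tumor, including trunk tumor 29, at 8.11 CPM for Hoxd9.

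In HoxC, Hoxc10 was at 2.20, 0.533 and 1.32 CPM in the Osx-Cre;NT3 tumors and at 2.79, 4.51 and 3.03 CPM in tumors 27, 29 and 36, a log2 fold change of 1.36 ± 0.58 with an edgeR adjusted p of 0.458. Hoxc8 had a log2 fold change of 0.93 ± 0.38 at the same adjusted p, and its groups overlapped. The larger fitted values for Hoxc11 and Hoxc13 were 2.28 ± 0.96 and 1.45 ± 1.42, and among trunk tumors alone they were -0.23 and -3.88. For Hoxc13 the value rested on tumor 36, and it was -1.74 without it. In 0 of the 9 HoxA genes tested were the lines apart without overlap. Over all genes 9.03% were apart and higher with FSP1-Cre;NT3 and 7.97% lower, and 9 genes are too few to tell 0 from those shares. Log2 fold changes of the HoxA genes ran from -0.89 for Hoxa2 to 0.39 for Hoxa6.

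Cofactors and regulators of HOX genes were compared in the same fits. No member of the lists below passed an edgeR adjusted p of 0.05 in either comparison. The TALE cofactors, homeodomain proteins that bind DNA together with HOX proteins, summed to 161.2 to 223.8 CPM in the trunk tumors, 215.7 in tumor 27 and 181.4 in tumor 36. Pbx2 was at 41.4 to 59.3 CPM over the 6 tumors. At an unadjusted edgeR p under 0.05, 3 of 9 were higher in perineal tumors, against 8.88% of all genes, and 0 were lower, against 1.63%. Pknox2 had the widest difference, at 0.0563 to 1.14 CPM in the trunk tumors, 2.92 in tumor 27 and 3.85 in tumor 36.

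Polycomb genes keep HOX genes silent, and Trithorax genes keep them active. Of 19 Polycomb genes 0 were higher in perineal tumors, against 8.88% of all genes, at an unadjusted edgeR p under 0.05. At that p 1 was lower, against 1.63%. Of 11 Trithorax and H3K27 demethylase genes 0 passed in either direction, against the same shares. The lists are too short to tell these counts from those shares. Cbx6 and Rbbp4, the most abundant Polycomb genes, were at 137.3 to 426.5 and 214.9 to 393.4 CPM. Cbx2, the Polycomb gene with the largest difference by site, had a log2 fold change of -0.63. Kmt2d, listed as Mll2, was at 12.7 to 213.3 CPM and Ash2l at 68.1 to 100.4 CPM. By line, 1 Polycomb gene was higher, against 7.31% of all genes, and 3 were lower, against 3.47%, at that p.

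Among genes of retinoic acid, a signal that turns on anterior HOX genes in the embryo, 4 of 17 were higher in perineal tumors at an unadjusted edgeR p under 0.05, against 8.88% of all genes, and 0 were lower, against 1.63%. DESeq2 called Aldh1a2 and Aldh1a3, which make retinoic acid, higher in perineal tumors, with adjusted p-values of 0.00208 and 0.0307. Aldh1a3 was at 0.207 to 2.75 CPM in the trunk tumors, 2.64 in tumor 27 and 20.6 in tumor 36. Cyp26b1, which breaks retinoic acid down, was at 6.42, 14.2 and 6.98 CPM in the Osx-Cre;NT3 tumors and at 37.8, 23.7 and 46.4 CPM in tumors 27, 29 and 36, with a DESeq2 adjusted p by line of 0.00192. The most abundant members, Rxra and Dhrs3, were at 74.0 to 217.4 and 54.3 to 163.4 CPM.

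Among upstream axial regulators other than Cdx1, Wnt3a was the highest in each tumor. Wnt3a was at 4.03 to 10.7 CPM and Gdf11, a signal that starts posterior HOX expression in the embryo, at 0.741 to 0.873 CPM in the Osx-Cre;NT3 tumors and 1.51 to 2.60 CPM in the FSP1-Cre;NT3 tumors, with a DESeq2 adjusted p by line of 0.0199. Fgf8 was at 0 counts in all 6. Cdx1 had a DESeq2 adjusted p by site of 0.0231, on the value of tumor 36.

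Of 29 other regulators of position, 24 were tested by line and 25 by site. At an unadjusted edgeR p under 0.05, 5 were higher and 1 was lower with FSP1-Cre;NT3, against 7.31% and 3.47% of all genes, and 3 were higher and 1 was lower in perineal tumors, against 8.88% and 1.63%. Tbx4, a hindlimb gene, was at 0.0282 to 0.0780 CPM in the Osx-Cre;NT3 tumors and at 0.645, 0.359 and 1.03 CPM in tumors 27, 29 and 36, with a DESeq2 adjusted p of 0.00279. Tbx18 was at 14.7, 23.9 and 15.2 CPM in the Osx-Cre;NT3 tumors and at 6.08, 6.03 and 4.06 CPM in tumors 27, 29 and 36, with a DESeq2 adjusted p of 0.00013. Isl1, a gene of the hindlimb and genital field, was at 0.0282 to 0.308 CPM in the 4 trunk tumors, 2.09 in tumor 27 and 5.78 in tumor 36, with a DESeq2 adjusted p by site of 0.000114. Both perineal tumors were thus above the trunk tumors for Isl1, as for the group 11 HOX genes and for 10.3% of all genes. Pitx1, which gives the hindlimb its identity, was the most abundant at 146.5 to 488.8 CPM, and its groups overlapped by site. Prrx1 followed at 20.04 to 43.5 CPM in the trunk tumors, 44.0 in tumor 27 and 47.5 in tumor 36, so that the perineal tumors were above the highest trunk tumor, number 29, by less than the trunk tumors differed among themselves.

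The microRNAs miR-196a and miR-196b, which lie among the HOX genes, are shown because they share a seed and their entries differed between tumors. Mature sequences are from RefSeq, GRCm38.p6, with the seed, bases 2 to 8 from the 5′ end, in capitals.
mmu-miR-196a-5p: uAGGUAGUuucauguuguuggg
mmu-miR-196b-5p: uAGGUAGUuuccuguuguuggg
They differ by A12C, miR-196a base first, outside the seed. The entries count fragments over the precursor in a library of polyadenylated RNA, and so the level of the mature microRNA was not measured. Mir196b, in HoxA next to Hoxa9 and Hoxa10, was at 1.99, 2.78 and 1.72 CPM in the Osx-Cre;NT3 tumors, 1.72 in tumor 29, 1.35 in tumor 27 and 1.09 in tumor 36. Mir196a-1, in HoxB between Hoxb9 and Hoxb13, was at 0.166, 0.0260 and 0.0282 CPM in the Osx-Cre;NT3 tumors, 0.513 in tumor 29, 0.0614 in tumor 27 and 1.88 in tumor 36. From high to low it ordered the tumors 36, 29, 13, 27, 25 and 18, as Hoxb9 did, though 4 of those values rest on 2 to 8 counts.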

How the data were processed

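The authors deposited 1 table with read counts and RPKM, counts relative to gene length and library size, per gene for all 6 tumors, made on mm10. Poly(A) libraries were sequenced on an Illumina HiSeq. Per the labels, reads were handled with bcl2fastq, TopHat2 version 2.0.6 and HTSeq, while the study's methods name HISAT2 and featureCounts; which tools made the deposited counts, the annotation and strandedness are not given in the sources used here. The deposited RPKM values were used only to compare levels between genes. Entries with an odd count numbered 0, so counts halved were tried.

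Groups were taken from sample titles and sites from tissue labels. The labels name separate mice. Counts were filtered with filterByExpr, scaled by TMM and tested with edgeR 4.0.16 (quasi-likelihood, Benjamini-Hochberg over all genes, R 4.3.3), with DESeq2 1.42.0 as an alternative, and both were tested on simulated data. CPM used TMM-scaled libraries. The ± values are standard errors derived from the quasi-likelihood fit, whose spread includes variation between tumors. The floor of 3 counts covers counting error only. Strands came from GENCODE M21, promoters and microRNAs from RefSeq, which matched 22 of 39 HOX genes.

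The members and lists were chosen with earlier results of these data known. All HOX genes were counted by cluster and group, and the values of 1 member and 1 cofactor are not reported here. Values in every tumor were given for the 3 with the highest mean CPM in each cluster, the 6 with the largest fold by site and 4 by line, and group 13, and fold changes also where an unadjusted p was under 0.05 or groups did not overlap. Of the other lists, the 2 most abundant members, the 1 with the largest fold by site and those past an adjusted p of 0.05 in either tool were named. Lists were TALE cofactors, HOX cluster neighbours, upstream axial regulators, other positional regulators, Polycomb, Trithorax, retinoic acid and markers of 12 cell types, with colorectal epithelium added after values were seen.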

Additional observations from a re-analysis of the deposited data

Results flagged for a closer look

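Single tumors were compared with the rest of their group by the gap to the nearest value over the whole range, on log2(CPM + 0.1). Genes entered if at least 1 tumor reached 1 CPM, which gave 66 groups of HOX values. Chance alone finds about 1 in 20, or 3.3, in independent groups. These groups shared tumors and neighbouring genes, so that number is only a rough guide. A tumor lay apart in 7. Tumor 36 was high among all 6 tumors for Hoxb13 (gap 0.948 of the range, 160.6 CPM), Hoxd12 (0.932, 5.16 CPM), Hoxd13 (0.907, 67.0 CPM), Hoxa13 (0.887, 6.88 CPM) and Hoxd11 (0.682, 4.85 CPM). All of these genes entered through tumor 36 alone, so their flags do not count against chance. Tumor 36 was low for Hoxa4 (0.713, 0.782 CPM). Among the 4 trunk tumors, tumor 29 was high for Hoxd9 (0.841, 8.11 CPM). Tumor 29 was the trunk tumor of the other mouse line.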

How the results depend on the processing

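No paired analysis was possible because the tumor numbers in the labels are not shared between the groups. With DESeq2 the genes called came to 452 by line and 725 by site, of which 4 and 6 were HOX genes, and the HOX median log2 fold change by line was 0.70 over 38 genes. With each tumor left out in turn, edgeR called 2 genes by site without tumor 25. Without tumor 27 its calls by site rested on tumor 36 alone and are no measure. The HOX median then ran from 0.31 to 0.67 by line and from -0.12 to 0.31 by site. DESeq2 with each tumor left out, added after seeing the data, called 201 to 3702 genes and 1 to 9 HOX genes by line, the highest without tumor 25, and 15 to 1539 genes and 0 to 8 HOX genes by site. The HOX median by site was -0.39 with line as a covariate and -0.30 in FSP1-Cre;NT3 tumors alone. Groups 9 to 13 took 30.6% of summed RPKM in trunk tumors. By line, Hoxc11 and Hoxc13 turned to -0.23 and -3.87 with site as a covariate and to -0.23 and -3.88 among trunk tumors alone, and Hoxc13 ran from -1.74, without tumor 36, to 2.00 as single tumors were left out. By site, Hoxc13 ran from -0.50, without tumor 36, to 3.26. The cause of the gap between the tools was not tested. With at least 10 counts in every tumor the HOX median by site was -0.0044 over 28 genes, and Hoxa11, Hoxc11, Hoxc13 and Hoxd11 were not tested; halved counts left Hoxd11 out by site and Hoxc11 by line. Library sizes alone, upper-quartile scaling and no filter changed no call or direction of the fold changes reported. With 1 tumor left in a group, that tumor is assumed to vary like the others.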

Other observations

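Marker lists not described above were summed in each tumor, and none of their members passed an edgeR adjusted p of 0.05. Basal keratinocyte genes summed to 10090 to 14650 CPM in the trunk tumors, 10580 in tumor 27 and 5740 in tumor 36, so keratin genes of squamous epithelium were abundant beside the fibroblast genes in every tumor. Suprabasal keratinocyte genes summed to 14.6 to 388.1 CPM, 58.8 and 801.3 in the same order. The 5 adipocyte genes were higher in both perineal tumors than in every trunk tumor, against 10.3% of all genes. They summed to 2.53 to 12.7 CPM in the trunk tumors, 36.2 in tumor 27 and 128.2 in tumor 36. DESeq2 called all 5 by site, against 3.87% of all genes. The 4 endothelial genes were also higher in both perineal tumors, against the same 10.3%, at 87.0 to 222.6, 334.4 and 262.9 CPM summed. In tumor 36 the margin over the highest trunk tumor was narrow for Cdh5, at 74.3 against 73.4 CPM, and for Kdr, at 38.3 against 38.0 CPM. DESeq2 called 0 of the 4 by site. Adipocyte and endothelial genes thus set tumor 27 apart from the trunk tumors along with the group 11 HOX genes; their part in those values was not tested. Leukocyte genes summed to 144.2 to 237.8, 226.9 and 274.9 CPM, melanocyte genes to 4.10 to 25.9, 5.62 and 11.1 CPM, and skeletal muscle genes to 23.4 to 104.6, 17.8 and 82.3 CPM. Osteoblast genes were at 0.286 to 0.949, 1.04 and 1.38 CPM summed, and Bglap, which defines mature osteoblasts, was at 0 counts in 3 tumors.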
